A study of Mus musculus with 42 samples.

Results

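The genes described here are 34 genes of protein folding in the endoplasmic reticulum (ER) and of the unfolded protein response, chosen by name from 19864 genes listed in any of 6 tables of mouse liver RNA-seq. All 34 were listed in all 6 tables and were tested in every comparison. By role, 10 are lumenal chaperones or their partners, 4 act in glycoprotein folding, 3 are disulfide isomerases, 4 are stress sensors or transcription factors, 9 act in ER-associated degradation and 4 in the translocon or in vesicle traffic.

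The study asked how a high fat diet, loss of the receptor ChemR23 and treatment with its ligand resolvin E1 (RvE1, derived from eicosapentaenoic acid) changed liver gene expression in male C57BL/6J mice. Knockout (KO) mice, made with CRISPR/Cas9, and their wildtype (WT) littermates received a diet with 10% (lean) or 60% (obese) of its energy as fat for 15 weeks, starting at 6 weeks of age. Each genotype had a lean, an obese and an obese+RvE1 group, 6 groups of 7 mice in all. The RvE1 groups received 300 ng RvE1 by intraperitoneal injection on 4 consecutive days and the other groups received vehicle, and all livers were taken on day 5 after at least 4 h without food. The deletion is carried in every cell of the animal, so the KO groups do not show what the receptor does in the liver alone.

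The ER folds secreted and membrane proteins, and hepatocytes secrete most plasma proteins. When unfolded proteins accumulate, the sensors IRE1 (Ern1), PERK (Eif2ak3) and ATF6 slow translation and raise the transcription of chaperones and degradation factors, in part through a spliced form of Xbp1. Splicing of Xbp1, cleavage of ATF6 and phosphorylation of the kinases were not measured, since the values are reads per gene.

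Promoters of several of these genes hold the ER stress response element (ERSE), which is known to be bound by ATF6 or XBP1 together with NF-Y. Windows from 250 bases before to 50 bases after the start of the gene (RefSeq, GRCm38.p6) were matched for 29 of the 34 genes, and not for Hyou1, Manf, Atf6, Derl1 and Sec61a1. The ERSE (CCAAT, any 9 bases, CCACG, searched on both strands) lay in the windows of 9 of 29 genes (31.0%) and of 37 of 27025 genes in the table (0.137%). These matches are shown because several of the genes are chaperones central to the response. They are printed 5′ to 3′ on the strand that reads CCAAT, with the fixed bases in capitals.
Hspa5, chr2:34772025-34772043, plus strand: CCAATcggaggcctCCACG
Calr, chr8:84847075-84847093, plus strand: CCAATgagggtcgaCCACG
Derl3, chr10:75893242-75893260, minus strand: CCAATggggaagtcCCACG
Hsp90b1, chr10:86705638-86705656, minus strand: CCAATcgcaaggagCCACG
Hsp90b1, chr10:86705533-86705551, plus strand: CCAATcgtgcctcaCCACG
Canx, chr11:50325800-50325818, minus strand: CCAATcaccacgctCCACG
Pdia6, chr12:17266491-17266509, plus strand: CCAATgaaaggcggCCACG
Dnajc3, chr14:118937827-118937845, plus strand: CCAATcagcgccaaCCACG
Creld2, chr15:88819520-88819538, minus strand: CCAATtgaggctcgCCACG
Syvn1, chr19:6046532-6046550, plus strand: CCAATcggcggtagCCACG

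The related ERSE-II (ATTGG, 1 base, CCACG) lay in the windows of Herpud1 and Dnajb11, 2 of 29 genes (6.90%), and of 12 of 27025 genes (0.0444%). The site TGACGTGG lay in 0 of 29 windows and in those of 193 of 27025 genes (0.714%). No match of the 3 motifs lay in the window of Ern1. The stretch before the start is shown for Hspa5, for Herpud1 and for Derl3, the gene with the largest difference between diets, read 5′ to 3′ on the plus strand, which is the strand of all 3 genes. Capitals mark the ERSE in Hspa5 and Derl3 (in Derl3 in the opposite orientation) and the ERSE-II in Herpud1.
Hspa5, chr2:34771970-34772089: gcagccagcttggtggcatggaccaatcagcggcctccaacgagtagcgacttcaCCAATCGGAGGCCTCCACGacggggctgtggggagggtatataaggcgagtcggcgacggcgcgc
Herpud1, chr8:94386309-94386428: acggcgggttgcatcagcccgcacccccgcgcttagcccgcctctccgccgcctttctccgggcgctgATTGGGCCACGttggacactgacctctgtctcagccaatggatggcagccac
Derl3, chr10:75893218-75893397: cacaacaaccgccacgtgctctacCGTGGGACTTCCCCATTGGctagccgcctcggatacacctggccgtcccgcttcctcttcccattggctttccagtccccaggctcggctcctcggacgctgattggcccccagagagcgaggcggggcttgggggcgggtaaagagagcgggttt

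The values are normalized read counts, in which the authors divided the reads of each gene by a size factor per library, separately in each table of 14 mice. The libraries held 15992525 to 43841120 reads on listed genes (median 24298290). Cmklr1, which encodes ChemR23, had 9.72 to 22.6 normalized counts in KO lean and 40.8 to 114 in WT lean mice. The groups did not overlap, though reads remained in KO mice. Hepatocyte markers were abundant in every library, with a summed normalized count of 7 listed markers between 1383181 and 1909185 in lean mice, and 0 of 7 were called in any comparison. All 7 lay below 0 with diet in WT mice (log2 median -0.26, all genes 0.003), and 6 with libraries scaled to equal totals. Below 0 were also 6 of 7 in KO lean against WT lean mice, and 4 of 7 with diet in KO mice and in KO obese against WT obese mice. With RvE1 1 of 7 lay below 0 in WT and 5 of 7 in KO obese mice. In whole liver, fewer cells of a type and less RNA per cell cannot be told apart.

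Per kilobase of merged exons (GENCODE M21), P4hb, a disulfide isomerase, had the highest level of the 34 genes in WT lean mice, with 9956 ± 1563 normalized counts per kb (SD, n = 7). Herpud1, which recruits the ER-associated degradation machinery, followed with 4596 ± 2330, then the chaperone BiP (Hspa5) with 4371 ± 2190 and the lectin chaperone calreticulin (Calr) with 3518 ± 1144. Herpud1, Hspa5 and Calr differed from each other by less than their SD. The ligase subunit adaptor Sel1l (416 ± 73.5) and the protein disulfide isomerase Pdia6 (674 ± 229) lay in the middle of the order. The 3 sensors lay lower, Atf6 at 326 ± 54.1, Ern1 at 82.2 ± 14.0 and Eif2ak3 at 58.2 ± 14.7. Derl3, a derlin of the channel through which misfolded proteins leave the ER, had the lowest level, 21.3 ± 27.5, with mice from 1.82 to 80.7.

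In WT mice the high fat diet changed 1 of the 34 genes. Derl3 was higher in WT obese than in WT lean mice, while the chaperones, isomerases and sensors did not pass the test. In WT lean mice Derl3 had 3.48 normalized counts at the lowest, a median of 19.9 and 154.5 at the highest. In WT obese mice these were 32.7, 127 and 600.0. All 7 WT obese mice lay above the median of WT lean mice and 3 lay above the highest, and the groups overlapped. The log2 fold change was 2.78 (SE 0.75, limma, Benjamini-Hochberg adjusted p = 0.052), with a 95% interval of 1.20 to 4.37. At an adjusted p below 0.1, the threshold for a call in every comparison, limma called 6.27% of 14012 genes here and 1 of 34 members (2.94%).

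The 3 high WT obese mice, 27-2L, 27-2R and 27RL, had 600.0, 432 and 393 normalized counts of Derl3, and their identifiers open with the same number, 27. The other 4 WT obese mice had 32.7 to 127. The labels do not say what the number stands for. When limma was fitted with a random block for this number, the log2 fold change was 2.61 (adjusted p = 0.14), and Derl3 was not called. It was also not called without WT obese mouse 27-2L (adjusted p = 0.11) or 27-2R (adjusted p = 0.11). Of 7 plasma and B cell markers, 0 were called, and their summed counts were 63.1 to 153 in WT lean and 64.7 to 165 in WT obese mice. Of 10 Kupffer cell markers 0 were called, and of 4 adipocyte markers tested 1, Cfd, was higher (4.34, adjusted p = 1.76e-05).

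The other members were not called with diet in WT mice. Over the 34 genes the median was -0.02 on the log2 scale (0.003 over all genes), and 15 lay above 0 and 19 below. With libraries scaled to equal totals 21 lay above 0 and 13 below, and over all genes 349 were called higher and 161 lower, against 512 and 366 with the authors' scaling. Apart from Derl3 they ranged upward from Dnajb9, a BiP co-chaperone, at -0.35 (SE 0.26, adjusted p = 0.50). For Hspa5 the difference was -0.07 (95% interval -0.74 to 0.60) and for Herpud1 0.19 (-0.57 to 0.95). All 4 sensors and factors lay below 0, from Eif2ak3 at -0.27 to Xbp1 at -0.07, and none of them was called. For 31 of 34 genes the 95% interval lay within a 2-fold change in either direction, the exceptions being Sdf2l1, Creld2 and Derl3.

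**Figure D1:**
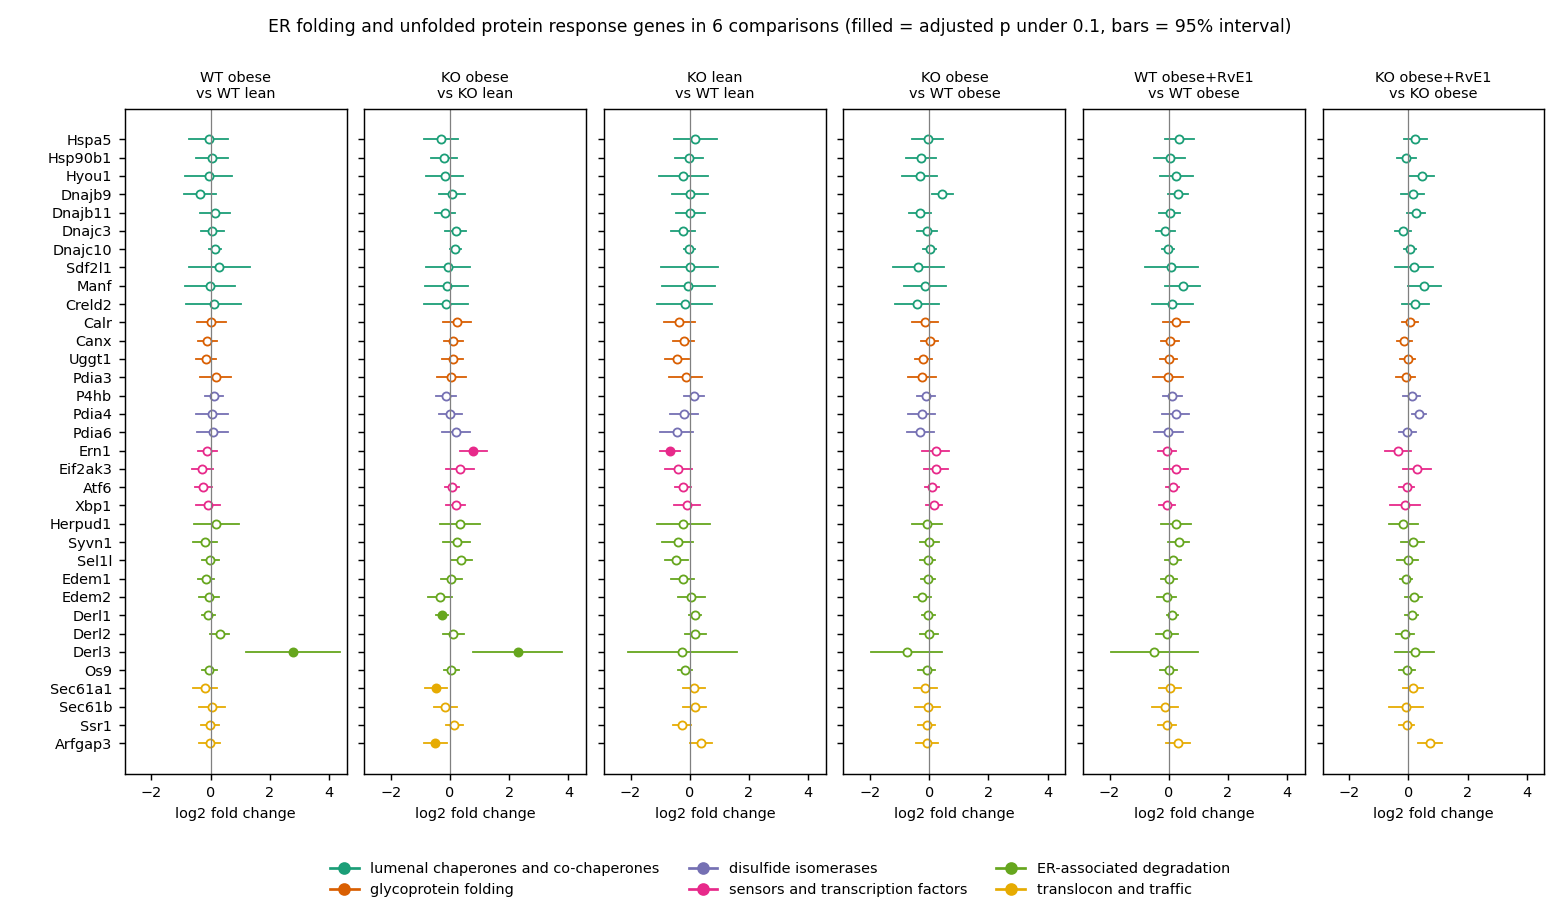
Log2 fold change of each of the 34 genes (rows, coloured by role) in the 6 comparisons (panels), with 95% intervals, where filled points passed an adjusted p below 0.1 in limma. Filled points are Derl3 in both diet comparisons, Ern1 in KO obese vs KO lean and in KO lean vs WT lean, and Derl1, Sec61a1 and Arfgap3 in KO obese vs KO lean, and 0 points are filled in the other 3 panels.

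In KO mice the diet changed 5 of the 34 genes, against 24.1% of 14213 genes in the whole table. Ern1 and Derl3 were higher in KO obese mice, and Derl1, Sec61a1 and Arfgap3 were lower. The 5 are 14.7% of the members, and the 2 higher genes were the ones that also exceeded a 1.5-fold change.

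Ern1 encodes IRE1, the kinase and ribonuclease that splices Xbp1. It had 344 normalized counts at the lowest, a median of 410.2 and 749 at the highest in KO lean mice, and 376, 865 and 1096 in KO obese mice. Of 7 KO obese mice, 5 lay above the highest KO lean mouse, and mouse 23L was the lowest of its group, at 376. The log2 fold change was 0.79 (SE 0.22, limma, adjusted p = 0.026). With the random block for identifier number it was 0.72 (adjusted p = 0.12), and Ern1 was not called.

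Derl3 had 2.05 normalized counts at the lowest, a median of 12.7 and 125 at the highest in KO lean mice, and 47.5, 118 and 168 in KO obese mice. All 7 KO obese mice lay above the median of KO lean mice. The log2 fold change was 2.28 (SE 0.71, limma, adjusted p = 0.041). Derl3 was the single member called with the random block, which called 7.44% of all genes. The count tests gave smaller values that were not called, 1.40 in edgeR (adjusted p = 0.12) and 1.35 in DESeq2 (adjusted p = 0.18). KO lean mice with the number 20 had 54.4, 108 and 125, and the other 4 KO lean mice had 2.05 to 12.7.

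Derl1, another derlin, had 3495 to 4361 normalized counts in KO lean (median 3889) and 3003 to 4042 in KO obese mice (median 3013). Of 7 KO obese mice, 6 lay below the lowest KO lean mouse and mouse 23L had 4042. The log2 fold change was -0.28 (SE 0.09, limma, adjusted p = 0.057). Sec61a1, the pore of the translocon through which new proteins enter the ER, had 3500.5 to 6364 in KO lean (median 5587) and 2974 to 5800.5 in KO obese mice (median 3447). The decrease was -0.47 (log2, SE 0.17, adjusted p = 0.073). Mouse 23L was again the highest KO obese mouse. Arfgap3, a regulator of vesicle coats in the early secretory pathway, had 154 to 335 in KO lean (median 195) and 117 to 218 in KO obese mice (median 143). The decrease was -0.50 (log2, SE 0.19, adjusted p = 0.076).

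Among the scalings, equal totals removed the calls of these 3 decreases. TMM scaling left 5 members called (24.2% of all genes), and edgeR and DESeq2 called 4 each (25.1% and 27.9% of all genes). When libraries were scaled to equal totals, the median of all genes shifted by 0.14 (log2) in this comparison, 5 members were called higher and 0 lower, and the 5 were Dnajc3, Ern1, Xbp1, Sel1l and Derl3. The same scaling gave 2555 genes higher and 628 lower over all genes, against 1704 and 1718 with the authors' scaling. Derl1 then had a log2 fold change of -0.13 (adjusted p = 0.42), Sec61a1 -0.33 (adjusted p = 0.12) and Arfgap3 -0.36 (adjusted p = 0.27).

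Over the 34 genes the median in KO mice was 0.06 on the log2 scale (-0.002 over all genes). All 4 glycoprotein folding genes, Calr, Canx, Uggt1 and Pdia3, lay above 0 (0.05 to 0.24) and 7 of 10 chaperones below, with Hspa5 the lowest at -0.32 (SE 0.27, adjusted p = 0.44), and none of these was called. With equal totals the 4 glycoprotein folding genes still lay above 0, but so did 6 of 10 chaperones. Xbp1 was at 0.19 (adjusted p = 0.43), Eif2ak3 at 0.33 (adjusted p = 0.34), Herpud1 at 0.33 (adjusted p = 0.52) and Atf6 at 0.07 (adjusted p = 0.69). Markers of other cells moved in the same comparison. Of 10 Kupffer cell markers, 8 were lower, with summed counts of 11082 to 23528 in KO lean and 6295 to 8576 in KO obese mice. Of 7 plasma and B cell markers tested, 6 were lower, with sums of 118 to 242 and 35.6 to 103, and the plasma cell gene Tnfrsf17 was not listed. Of 4 adipocyte markers tested, 3 were higher, while Adipoq, Plin1, Retn and Lep were not listed. The part of these cells in the values of the 5 genes was not tested.

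**Figure D2:**
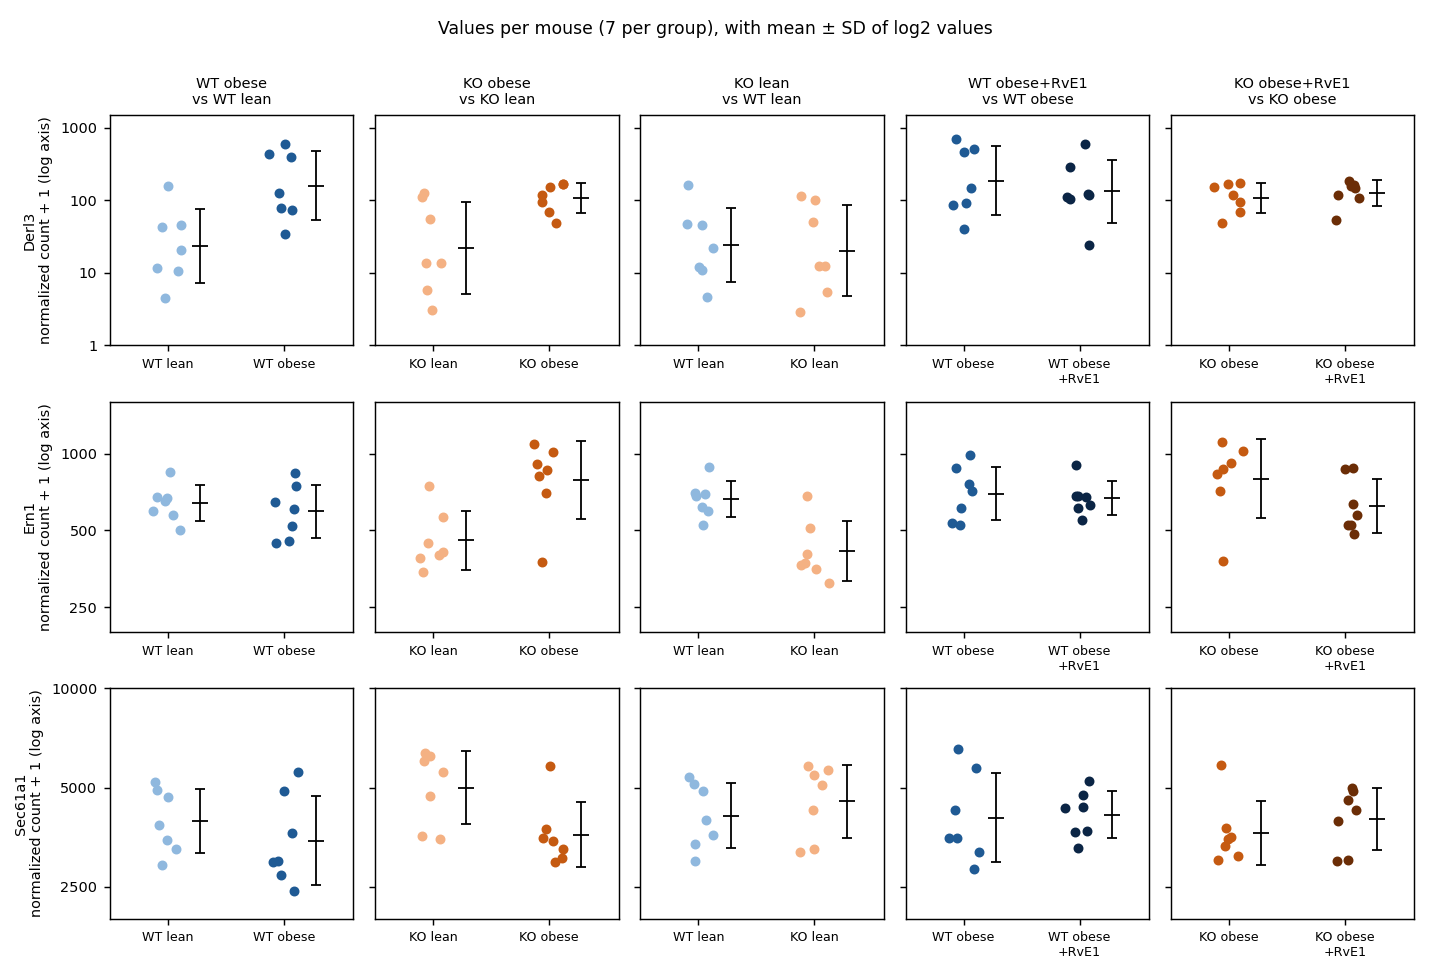
Normalized count + 1 of Derl3, Ern1 and Sec61a1 (rows, log axis) in each mouse, 7 per group, in 5 comparisons (columns), with the mean and SD of the log2 values beside the points. Derl3 spans 3.48 to 154.5 in WT lean and 32.7 to 600.0 in WT obese mice, and Ern1 is lower in KO lean mice (median 373) than in WT lean mice (median 682) in the table of the lean groups.

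Between the lean groups 1 of 34 members (2.94%) differed, against 16.3% of 13031 genes. Ern1 was lower in KO lean than in WT lean mice. It had 522 normalized counts at the lowest, a median of 682 and 887 at the highest in WT lean mice, and 312, 373 and 682 in KO lean mice. Of 7 KO lean mice, 6 lay below the lowest WT lean mouse and mouse 20R had 682. The log2 fold change was -0.68 (SE 0.16, limma, adjusted p = 0.036), and with the random block for identifier number it was -0.68 (adjusted p = 0.14). In that fit Ern1 was not called, and limma called 3 genes in all. The contrast of diets in KO mice uses the same KO lean mice, so the lower Ern1 here and the higher Ern1 there share those values.

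The other members were not called between the lean groups. Their median, Ern1 included, was -0.16 on the log2 scale (-0.0004 over all genes), and 23 of 34 lay below 0. Unadjusted p-values below 0.05 were found for 26.8% of all genes and for 4 of 34 members. Beside Ern1 these members were Uggt1, the folding sensor of glycoproteins (-0.43, adjusted p = 0.16), Sel1l (-0.45, adjusted p = 0.14) and Arfgap3 (0.38, adjusted p = 0.18). Hspa5 was at 0.20 (95% interval -0.53 to 0.92), Herpud1 at -0.22 (-1.11 to 0.68), Xbp1 at -0.09 (adjusted p = 0.80), Atf6 at -0.22 (adjusted p = 0.28) and Eif2ak3 at -0.38 (adjusted p = 0.27). With equal totals, which shifted the median of all genes by -0.12, 5 members were lower and 0 higher (Uggt1, Ern1, Sel1l, Os9 and Ssr1), and 392 genes were higher and 1753 lower over all genes, against 1042 and 1081. Without KO lean mouse 20R, limma called 27.2% of all genes and 10 members (29.4%), all lower, namely Calr, Uggt1, Pdia6, Ern1, Eif2ak3, Atf6, Syvn1, Sel1l, Edem1 and Ssr1. Kupffer cell markers were higher in KO lean mice (9 of 10), with summed counts of 4467 to 9311 in WT lean and 10056 to 21335 in KO lean mice, and of 6 plasma and B cell markers tested 2 were higher, Ms4a1 (1.09, adjusted p = 0.068) and Cd79b (0.88, adjusted p = 0.083), with summed counts of 61.9 to 149 and 94.02 to 204. The part of these cells in the values of Ern1 was not tested.

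Between the obese groups 0 of 34 members were called, where limma called 0.0141% of 14162 genes. At an unadjusted p below 0.05 there were 2.25% of all genes and 1 member, Dnajb9, at 0.44 (SE 0.17, adjusted p = 1.00). Dnajb9 had 1395 to 3176 normalized counts in WT obese (median 1702) and 1853 to 3176 in KO obese mice (median 2391). edgeR and DESeq2 also called 0 members. The members' median was -0.09 on the log2 scale (all genes -0.002), and 26 lay below 0. Derl3 was at -0.76 (95% interval -1.95 to 0.43), with 36.2 to 663 normalized counts in WT obese and 45.4 to 162 in KO obese mice. Ern1 was at 0.22 (-0.23 to 0.66), Hspa5 at -0.06 (-0.58 to 0.46) and Herpud1 at -0.07 (-0.58 to 0.43). Eif2ak3 was at 0.22, Xbp1 at 0.17 and Atf6 at 0.09, each with an adjusted p of 1.00.

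No call was made for RvE1 among the 34 genes in either genotype. Limma called 0.0% of 13085 genes in WT obese and 0.0% of 14207 genes in KO obese mice. In WT obese mice 795 genes and 0 members had an unadjusted p below 0.05. edgeR called 1 gene and DESeq2 called 25, none of them members. In KO obese mice 1179 genes and 3 members had an unadjusted p below 0.05, namely Arfgap3, Pdia4 and Hyou1. There edgeR called 0 genes and DESeq2 called 17, none of them members. The 95% interval lay within a 2-fold change in either direction for 32 of 34 members in WT mice (not for Manf and Derl3) and for 32 in KO mice (not for Manf and Arfgap3).

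For Hspa5 in WT obese mice, those without RvE1 had 12428 normalized counts at the lowest, a median of 15086 and 37218 at the highest, and with RvE1 18230.5, 22220 and 30148. All 7 treated mice lay above the median of the vehicle mice and none above the highest. The log2 fold change was 0.36 (95% interval -0.13 to 0.86, limma, adjusted p = 0.92). In KO obese mice it was 0.23 (-0.16 to 0.63, adjusted p = 0.72). Manf, a secreted BiP cofactor, was at 0.47 in WT mice (adjusted p = 0.89) and at 0.54 in KO mice (adjusted p = 0.60). In KO obese mice Pdia4, a disulfide isomerase, had 2362 to 3763 normalized counts with vehicle and 3574 to 4755 with RvE1, and 6 of 7 treated mice lay above the highest vehicle mouse (0.35, SE 0.11, adjusted p = 0.56). Arfgap3 had 118 to 220.3 with vehicle and 179 to 440.1 with RvE1 (0.74, SE 0.19, adjusted p = 0.56). The contrast of diets in KO mice uses the same KO obese vehicle mice. The lower Arfgap3 there and the higher Arfgap3 here therefore share those values.

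For the sensors and for Herpud1 the differences with RvE1 were as follows. In WT obese mice Ern1 was at -0.06, Eif2ak3 at 0.26, Atf6 at 0.13, Xbp1 at -0.08 and Herpud1 at 0.25, with adjusted p-values of 0.93 to 0.99. In KO obese mice Ern1 was at -0.35, Eif2ak3 at 0.29, Atf6 at -0.06, Xbp1 at -0.11 and Herpud1 at -0.17, with adjusted p-values of 0.64 to 0.91. Derl3 was at -0.49 (95% interval -1.97 to 0.98) in WT and at 0.21 (-0.45 to 0.87) in KO obese mice. Derl1 and Sec61a1 were at 0.12 and 0.03 in WT and at 0.12 and 0.15 in KO mice.

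Whether the effect of diet differed between genotypes was tested with an interaction term over 28 mice. Of 34 members 0 were called, against 0.00718% of 13924 genes. An unadjusted p below 0.05 was found for 18.3% of all genes and for 1 member. That member was Ern1, whose diet effect was 0.89 larger in KO than in WT mice on the log2 scale (SE 0.27, limma, adjusted p = 0.14). It was called in DESeq2, which called 926 of 9874 genes with an adjusted p (9.38%), so that 1 of 34 members (2.94%) lay below the share of all genes. It was not called in edgeR, which called 1 gene. For Derl3 the difference was -0.50 (95% interval -2.77 to 1.77). The effect of RvE1 did not differ between genotypes past the threshold for any member (0.0% of 13059 genes called, 311 genes and 0 members with an unadjusted p below 0.05, and 0 members called in edgeR and DESeq2).

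Across all 6 comparisons and 34 genes, the groups overlapped in all 204 pairs. The share of all genes with overlap was not counted, so this is not a trait of the members. Many of the 34 genes varied widely between mice of the same group. In WT lean mice Hspa5 had 8762 to 33357 normalized counts and Herpud1 3033 to 16162. Creld2, an ER stress-induced isomerase, had 219 to 1286 and Sdf2l1, a BiP partner, 296 to 1606, both more than 5-fold. The SD of log2 values within groups, pooled over the 42 mice, had a median of 0.38 over the members and 0.32 over the 12748 genes of all 3 tables used. It was 1.45 for Derl3, and 0.275% of genes had a higher value. It was 0.86 for Sdf2l1, 0.73 for Creld2, 0.71 for Manf and 0.66 for Herpud1. The least variable members were Dnajc10 (0.14) and Derl1 (0.15).

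Part of this variation lay between mice whose identifiers open with different numbers. Of the variance within groups, a median of 61.2% over the members lay between these numbers, against 27.1% over all genes. The share was 84.9% for Herpud1, and 0.251% of genes had a higher share. In the table of the lean groups Herpud1 had 3033 and 4281 normalized counts in the 2 WT lean mice with number 8, and 11576 to 16162 in the 4 with numbers 21 and 26. In KO lean mice it had 4233 to 5318 in the 4 mice with numbers 9 and 14, and 11711 to 17349 in the 3 with number 20. Hspa5 was also low in number 8 (8762 and 11032) and high in numbers 26 (20174 and 27672) and 20 (24853 to 35266). The order of the 2 genes differed elsewhere. Number 21 had 11092 and 17303 of Hspa5. The 1 mouse of number 19 had the highest Hspa5 of WT lean mice, 33357, but 9197 of Herpud1. In KO lean mice Hspa5 was 11389 and 11488 in number 14 and 12329 and 18312 in number 9. Mice of the same number could also lie far apart. In WT obese mice with number 27 Hspa5 ran from 12428 to 37218 normalized counts, the lowest and the highest mouse of the group, and Hyou1 from 1762 to 6964. In the 2 KO obese+RvE1 mice with number 23 Herpud1 had 6884 and 16938. The share was low for Ern1 (20.3%), Sec61b (17.5%) and Sel1l (below 0 as estimated). These shares were described after the values had been seen, and what the numbers stand for is not given in the labels. Each number except 23 lay within 1 group, so differences between numbers and between groups cannot be fully told apart in any comparison.

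**Figure D3:**
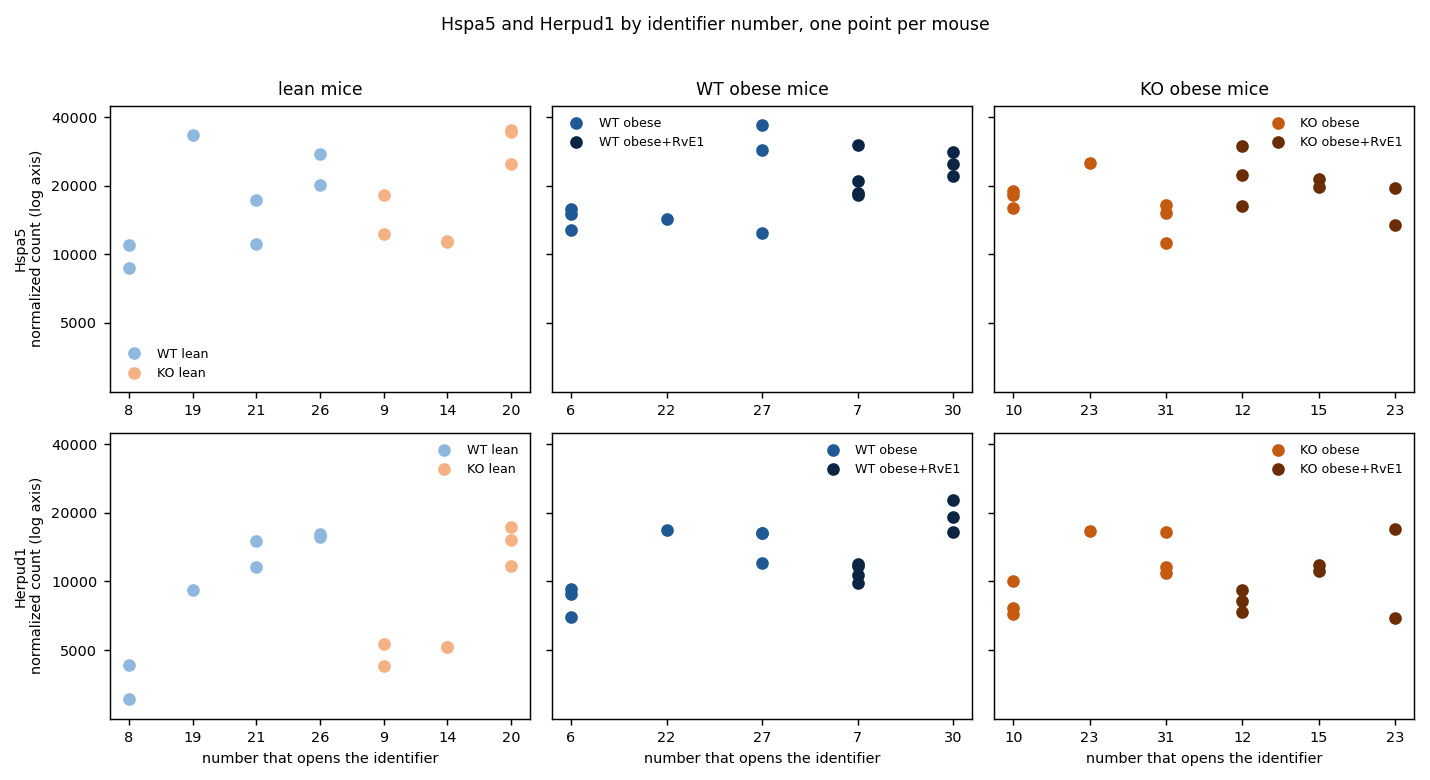
Normalized counts (log axis) of Hspa5 and Herpud1 (rows) in each mouse, arranged by the number that opens its identifier and coloured by group, in lean, WT obese and KO obese mice (columns, each from its own table). Herpud1 lies at 3033 to 4281 in WT lean mice of number 8 and at 11711 to 17349 in KO lean mice of number 20, while Hspa5 in WT obese mice of number 27 spans 12428 to 37218.

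The members also varied together between mice. Deviations from the group means of log2 values were compared with those of Hspa5 over 42 mice. The median Pearson's r of the other 33 members with Hspa5 was 0.67, and -0.0004 over all genes. r was above 0.5 for 26 of 33 members and for 7.77% of all genes. Permutation of mice within groups (two-sided, 100000 permutations, adjusted over the 33 relations) gave an adjusted p below 0.05 for 28 members with Pearson's r and for 28 with Spearman's rho. The permutation exchanged mice across identifier numbers, so these p-values treat mice of the same number as independent. These mice share libraries and depth with every gene, and r of Hspa5 with the total reads of the library was -0.11 (permutation p = 0.46) and rho -0.14 (permutation p = 0.39). Without the 2 mice farthest from the median of Hspa5 (WT lean 19R and WT obese 27-2L), r stayed above 0.5 for 25 members. Between mice of the same group and the same number (39 mice) it was above 0.5 for 16 members, with a median of 0.49. With equal totals it was above 0.5 for 21, with a median of 0.57 (all genes -0.09). The share of all genes above 0.5 was not counted in these alternatives.

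By role the median r was 0.79 for chaperones and their partners, 0.77 for disulfide isomerases, 0.69 for ER-associated degradation, 0.66 for glycoprotein folding and for translocon and traffic, and 0.20 for sensors and factors. These medians were not tested against each other, and among the chaperones r ran from 0.37 (Dnajc10) to 0.95. Creld2 had r = 0.95 (rho 0.94, permutation p = 1e-05, the smallest the permutations can give, adjusted p = 2.36e-05), Hyou1, a large HSP70-like chaperone, 0.93 (rho 0.90) and Manf 0.90 (rho 0.88), each with the same permutation p. No gene of 12747 had a higher r than Creld2. The co-chaperone Dnajb11 had 0.86, Sec61a1 0.84, Pdia4 0.83 and Pdia3 0.82. Within numbers these 7 had r between 0.66 and 0.91. For Derl3, r was 0.69 (rho 0.67, permutation p = 7e-05, adjusted p = 0.00011) over all mice and 0.04 within numbers. For Herpud1 it was 0.61 (rho 0.60, permutation p = 0.00062, adjusted p = 0.000818) and 0.42 within numbers.

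Among the sensors and factors, Xbp1 alone passed the threshold. r was 0.63 for Xbp1 (rho 0.63, permutation p = 3e-05, adjusted p = 5.21e-05) and 0.48 within numbers. It was 0.21 for Atf6 (adjusted permutation p = 0.26), 0.18 for Eif2ak3 (adjusted permutation p = 0.28) and -0.17 for Ern1 (adjusted permutation p = 0.30). Sel1l (0.24) and the lectin Os9 (0.28), which select proteins for degradation, also missed the threshold, with adjusted permutation p-values of 0.21 and 0.10. Among members with a promoter window, the 8 that held an ERSE besides Hspa5 had r from 0.65 (Canx) to 0.95 (Creld2) with a median of 0.69, and the 20 without it had r from -0.17 (Ern1) to 0.86 (Dnajb11) with a median of 0.64. The medians lay close together, and the sets overlapped.

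**Figure D4:**
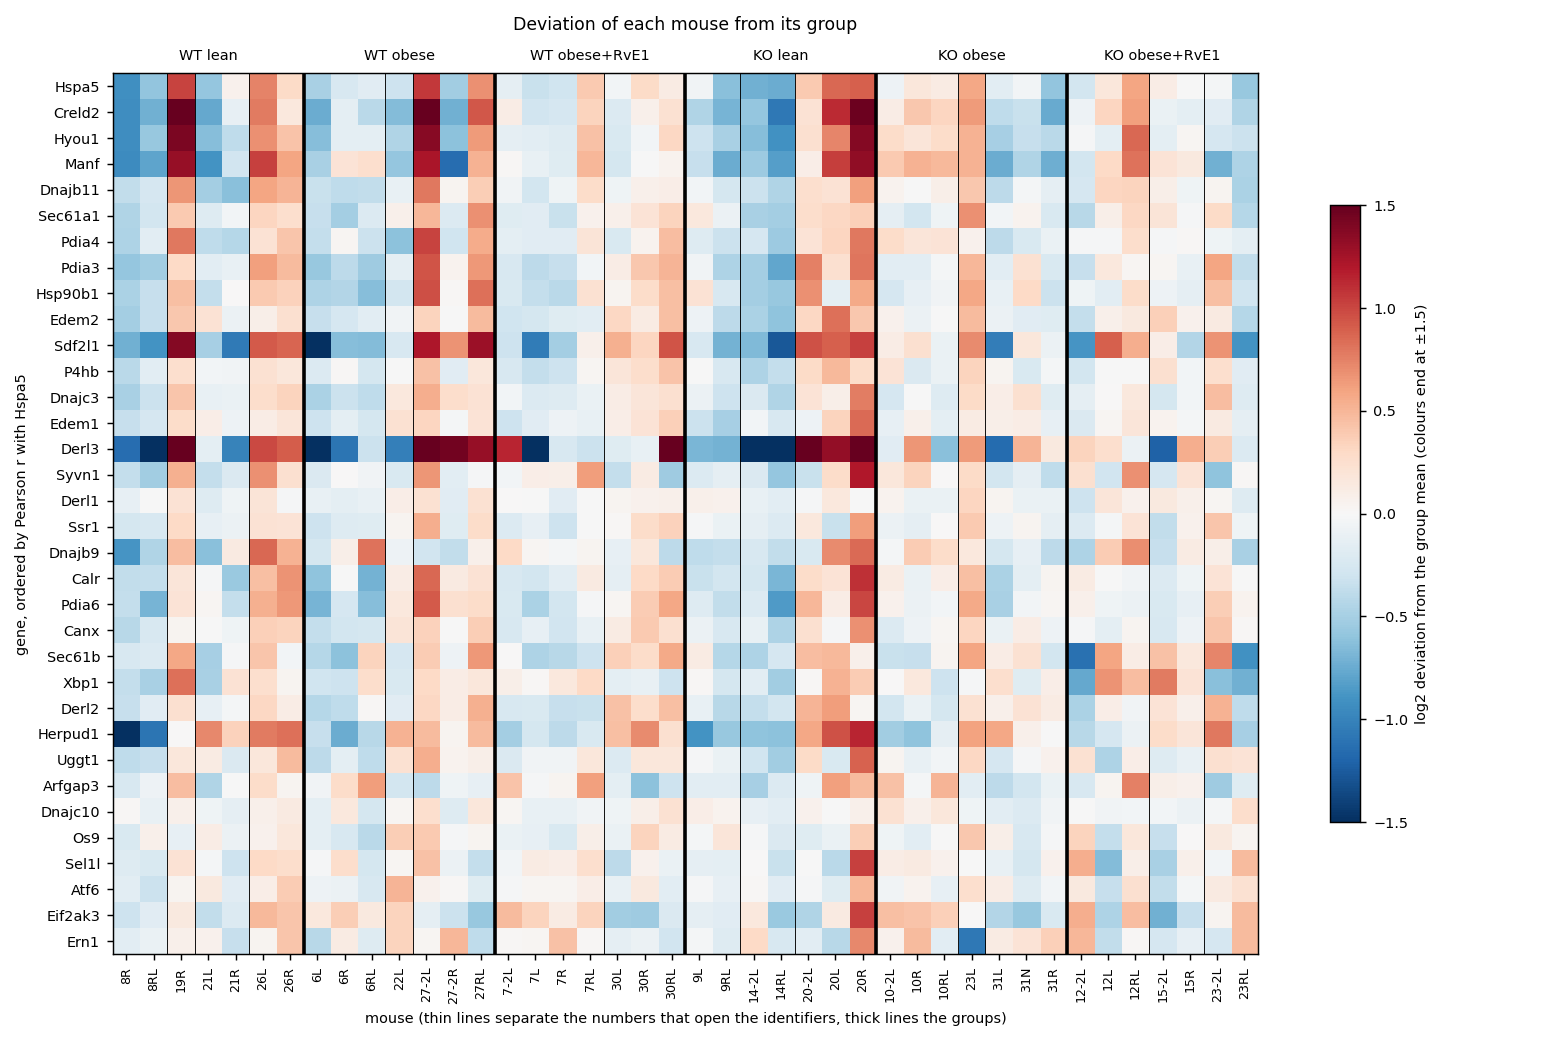
Deviation of each of 42 mice (columns, by group and identifier number) from its group mean on the log2 scale for the 34 genes (rows, ordered by r with Hspa5). Columns of mice such as WT lean 19R, WT obese 27-2L and KO lean 20R are red from Hspa5 down to most of the chaperones and isomerases, while in the lowest rows, from Os9 to Ern1, 19R and 27-2L are paler and 20R stays red.

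**Figure D5:**
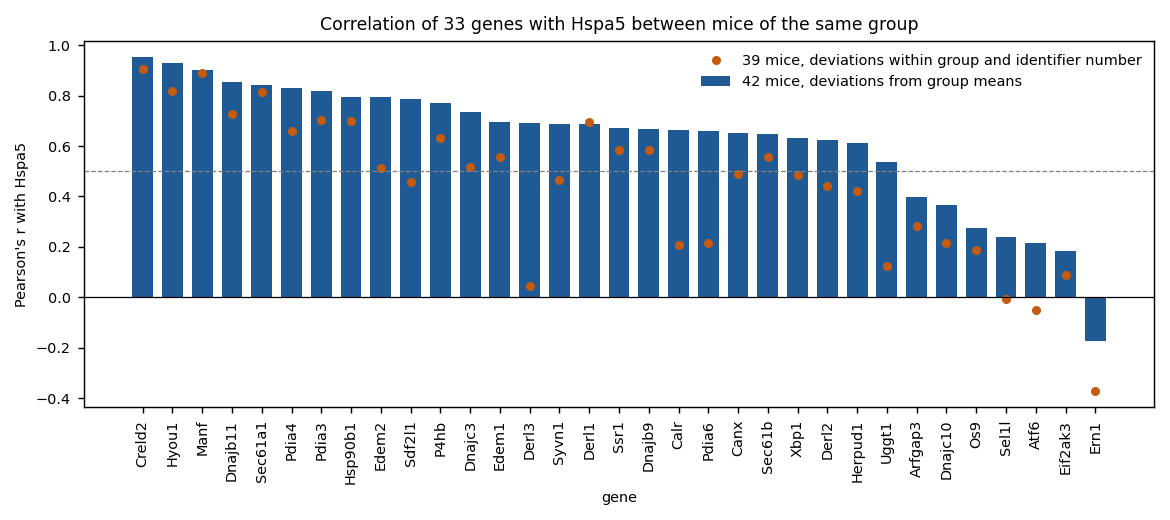
Pearson's r with Hspa5 for 33 genes over 42 mice (bars, deviations from group means) and over 39 mice with deviations taken within group and identifier number (points), with a dashed line at 0.5. Creld2, Hyou1 and Manf lie at 0.90 or above, Derl3 falls from 0.69 to 0.04 within numbers, and Ern1 is the 1 gene below 0 over all mice.

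Genes of the pathway outside the 34 were read from lists. Of 61 other ER genes, among them the translocon, glycosylation and redox genes, 58 were tested in each comparison. In WT mice diet left 0 higher and 2 lower, against 6.27% of all genes called. The 2 were the prolyl isomerase Fkbp14 (-0.70, SE 0.11, adjusted p = 0.0025) and the disulfide isomerase Pdia5 (-0.41, SE 0.12, adjusted p = 0.079). In KO mice the diet left 3 higher and 14 lower, against 24.1% of all genes called, and the list's median was -0.09 on the log2 scale (all genes -0.002). In that fit 26 of 58 lay above 0 and 32 below, and with equal totals 35 lay above and 23 below, with a median of 0.05 (all genes 0.14). The smallest adjusted p-values were those of Fkbp11 (-0.81), the signal peptidase subunit Spcs1 (-0.72), Fkbp14 (-0.56) and the translocon-associated Ssr4 (-0.73), at 0.018 to 0.020. Between the lean groups 6 were higher and 7 lower in KO mice, against 16.3% of all genes called. Spcs1 was at 0.79 (adjusted p = 0.041). The ER-associated degradation enzyme Ube2j1 (-0.43), the oxidase Ero1l (-0.38) and the oligosaccharyltransferase subunit Stt3a (-0.62) were lower. Both comparisons in which Spcs1 was called use the KO lean mice. Between the obese groups and with RvE1, 0 of 58 were called in limma.

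The integrated stress response list holds targets of the PERK and ATF4 branch. Of 17 genes tested, diet left 1 higher and 3 lower in WT mice, and 2 higher and 4 lower in KO mice. Over all genes 6.27% were called in WT and 24.1% in KO mice. Fgf21, a hormone released by the liver in fasting and stress, was lower in both (-1.68, SE 0.33, adjusted p = 0.010 in WT, and -1.39, SE 0.30, adjusted p = 0.0090 in KO). The factor Atf5 was also lower in both (-0.90, adjusted p = 0.039, and -1.14, adjusted p = 0.012), and Vldlr, a lipoprotein receptor, was higher in both (1.19, adjusted p = 0.042, and 1.33, adjusted p = 0.068). Atf3 was lower in WT (-1.67, adjusted p = 0.062) and asparagine synthetase, Asns, in KO obese mice (-1.29, adjusted p = 0.037). Between the lean groups Atf3 was lower in KO mice (-1.37, adjusted p = 0.095). The list's median was 0.04 in WT and -0.06 in KO mice.

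Beside the correlation with Hspa5, 31 of 58 other ER genes (53.4%) had r above 0.5, with a median of 0.52, and 9 of 19 cytosolic heat shock proteins (47.4%), with a median of 0.50. It was 1 of 14 for the integrated stress response (median 0.21), 1 of 13 for core clock genes (median -0.09), 0 of 12 for immediate early genes (median -0.07), 0 of 10 for Kupffer cell markers (median 0.03) and 0 of 7 for hepatocyte markers (median 0.34). Clock genes had a median of 62.8% of their variance within groups between identifier numbers, and heat shock proteins 65.6%, close to the members, and immediate early genes -1.5% as estimated. The part of sampling time in the variation between mice was not tested, since the labels give no time of day.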

How the data were processed

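Liver RNA of 42 mice was sequenced (stranded kit, paired ends), 1 library per mouse. The authors aligned reads to mm10 with Bowtie2, counted pairs per gene with featureCounts and divided counts by DESeq2 size factors per comparison. Tool versions, the annotation used and whether counting kept strand were not stated in the labels or methods, so overlapping antisense genes cannot be told apart. Each of 6 deposited tables lists normalized counts, a signal that is whole reads divided by a size factor (100.0% of values were whole to within 0.1 reads), beside the authors' fold changes and p-values, which were not used. Tables were normalized separately and compared only within a table, except in the interaction fits of edgeR and DESeq2.

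Log2(normalized count + 1) of genes with a mean of at least 5 was tested with limma 3.58.1 (trend, two-sided, Benjamini-Hochberg over all genes, called below 0.1), the count test being kept as an alternative since the values were normalized. Fold changes are on that log2 scale and depend on the pseudocount and the test for low genes such as Derl3. Interactions used 28 mice. In limma each fold change was formed within its table, while edgeR and DESeq2 normalized the recovered reads of the 28 mice together. Alternatives were edgeR 4.0.16 and DESeq2 1.42.0 on the recovered reads, pseudocounts of 0.5 and 4, no filter, TMM scaling, equal totals, the identifier number as a random block, an adjusted p below 0.05, a 1.5-fold change, and each mouse left out. Scripts were tested on simulated data. Correlations used lean mice from the table of both lean groups and obese mice from the RvE1 tables. Depth limits the counts below about 10 reads, as for Derl3 in lean mice.

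The 34 genes and the lists were chosen with earlier results of these data known. Every called gene is named, with Hspa5, Xbp1, Atf6, Ern1, Eif2ak3 and Herpud1 whatever their values, and up to 4 called genes per list. Other genes named for an unadjusted p, a spread or an r were chosen after their values were seen. Promoter sequences are from RefSeq on GRCm38.p6. Protein sequences were not analysed here.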

Additional observations from a re-analysis of the deposited data

Results flagged for a closer look

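In 17 of 204 sets of 7 mice (34 genes in 6 groups, 8.33%), the highest or lowest mouse stood apart from the others by Dixon's test. The test's nominal rate is about 1 in 20 for a single set. The 34 genes were read in the same mice and varied together, so the sets are not independent. An excess over that rate can therefore not be read from the 17 sets, and the share over all genes was not counted. KO obese mouse 23L accounted for 5 of the 17. It had the lowest Ern1 of its group, with 376 normalized counts against a group median of 865, and the highest Edem2 (969), Derl1 (4042), Sec61a1 (5800.5) and Ssr1 (3399). KO lean mouse 20R had the highest Atf6 (3965) and Sel1l (5758). In WT obese mice, 6RL had the highest Dnajb9 (2884), 22L the highest Atf6 (3471) and 27-2L the highest Syvn1 (2035). In WT obese+RvE1 mice, 7RL had the highest Manf (2096) and 7R the lowest Derl1 (3254). In KO obese+RvE1 mice, 12RL had the highest Hyou1 (5251) and Pdia4 (4755), 23RL the highest Dnajc10 (699.5), 23-2L the highest Canx (9332) and 15-2L the lowest Derl3 (52.9).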

How the results depend on the processing

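In WT mice the diet call of Derl3 was kept with both pseudocounts, no filter, TMM, equal totals, edgeR and DESeq2. The number of called members fell from 1 to 0 with a random block for identifier number, at an adjusted p below 0.05, and without WT obese mouse 27-2L or 27-2R (0 to 1 over the 14 mice left out in turn). The share of all genes called also fell, from 6.27% to 1.99% with the block, 4.43% without 27-2L and 4.32% without 27-2R. In KO mice 5 members were called, beside 24.1% of all genes. The block left 1 (7.44% of all genes), and a fold above 1.5 left 2 (1476 of 14213 genes). An adjusted p below 0.05 left 2, and the share of all genes was not counted there. Leaving out each mouse gave 2 to 8. There were 2 without KO lean 9L, KO obese 10R or 31R (15.7%, 17.8% and 15.6% of all genes called). There were 3 without KO lean 20L, KO obese 10RL or 31L (19.6%, 19.5% and 21.3%), and 8 without KO lean 20R (6 higher, 2 lower, 31.7%). Ern1 and Derl3 were called in all 14, Derl1 was lost in 4, and Sec61a1 and Arfgap3 in 8 each. Between the lean groups 1 member was called, beside 16.3% of all genes. Equal totals gave 5 (16.5% of all genes) and the block 0 (0.023%). Leaving out each mouse gave 1 to 10, with 10 without KO lean 20R (27.2% of all genes called). The diet by genotype interaction gave 1 member in DESeq2, beside 926 genes in all (9.38%), and 0 in the other fits. The correlation with Hspa5 was above 0.5 for 26 members and for 16 within identifier number. For the obese genotype comparison and both RvE1 comparisons every alternative gave 0 members. No called member changed sign in any alternative, but members not called did, and with equal totals those above 0 went from 15 to 21 in the WT diet comparison and from 18 to 25 with RvE1 in KO mice. The cause of these differences was not tested. No paired analysis was possible because the labels give no replicate number, and the groups compared share at most 1 identifier number (23, in KO obese and KO obese+RvE1). Depth limits Derl3 most, since some lean mice held under 10 normalized counts.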

Other observations

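Cytosolic heat shock proteins, chaperones outside the ER, were read from a list of 19 genes. In KO obese mice with RvE1, 19 of 19 lay below 0, with a median of -0.40 on the log2 scale (all genes -0.008), and limma called 0 of them. With libraries scaled to equal totals 14 of the 19 lay below 0. In WT obese mice with RvE1, 17 of 19 lay above 0, with a median of 0.18, and 0 were called. Between the lean groups 1 was called, Bag3 (-0.52, adjusted p = 0.081), against 16.3% of all genes.

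Of 14 core clock genes tested, 3 were higher and 2 lower with diet in WT mice, against 6.27% of all genes called. Per3 was at 1.48 (adjusted p = 0.0028) and Clock at -0.70 (adjusted p = 0.015). In KO mice 4 were higher and 1 lower, against 24.1% of all genes called, with Hlf at 0.72 (adjusted p = 0.0026) and Per2 at 1.31 (adjusted p = 0.013). Of 13 immediate early genes, 3 were lower in KO lean than in WT lean mice, among them Nr4a1 (-2.76, adjusted p = 0.043). Over all genes 16.3% were called there. Of 16 acinar pancreas markers at most 3 were tested in a comparison, and 0 were called.

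Outside the 34 genes, those with the highest r with Hspa5 over 42 mice, chosen after their values were seen, were Magt1, an oligosaccharyltransferase subunit (0.89), the HSP70 family member Hspa13 (0.88), the signal peptidase subunit Spcs2 (0.86) and Ubfd1 (0.86).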
